A study of Vitis vinifera with 36 samples.

Results

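The genes described here encode chalcone synthase (CHS), chalcone isomerase (CHI) and flavanone 3-hydroxylase (F3H), the enzymes of the early flavonoid pathway. They were picked by identifier as the genes of these 3 enzymes, with no threshold on a measured level. The choice was made with earlier results of these data known. The list held 7 genes of 3 enzymes, and 6 of them had a value among the 28119 genes listed in at least 1 library. The measured genes were the CHS genes VIT_214s0068g00920 and VIT_205s0136g00260, the CHI genes VIT_213s0067g03820 and VIT_213s0067g02870, and the F3H genes VIT_204s0023g03370 and VIT_218s0001g14310. A further CHS gene, VIT_214s0068g00930, had no value to analyse, so it was not read as a level of 0 and is not analysed here. All 6 measured genes passed the filter on low counts, which kept 19736 genes.

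CHS joins p-coumaroyl-CoA with malonyl-CoA to form naringenin chalcone, the first compound that belongs to flavonoids. CHI closes the ring of the chalcone to give naringenin, and F3H hydroxylates naringenin to dihydrokaempferol. In the grape berry these steps feed the flavonols, the proanthocyanidins and, in coloured varieties, the anthocyanins of the skin. Stilbene synthase uses the same substrates as CHS and leads to resveratrol instead.

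The libraries came from de-seeded berries of ‘Muscat Hamburg’, a black table grape, and ‘Victoria’, a white one, each grafted on SO4 rootstock and cropped in both seasons of the vintage 2014. In each variety, winter season berries were compared with summer season berries at 3 growth stages, numbered on the modified scale of Eichhorn and Lorenz (E-L). These were E-L 35 (onset of veraison), E-L 36 (veraison complete) and E-L 38 (harvest). The 12 groups held 3 biological replicates each, and each replicate was a pool of berries. The season was not replicated over years, so the p-values reflect only how much the berry pools of a crop differed.

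The 36 libraries held totals of 5624449 to 18606068 estimated counts (median 10599909). Depth differed with the season at E-L 35. In ‘Victoria’ it was 15334749 to 18606068 in summer and 5624449 to 9397265 in winter. In ‘Muscat Hamburg’ it was 13525268 to 14008346 in summer and 8705162 to 11007936 in winter. The colour markers fitted the labels of the varieties. MYBA1, the activator of anthocyanin synthesis in the skin, was between 11.85 and 71.63 FPKM in the ‘Muscat Hamburg’ libraries and between 0 and 0.63 FPKM in the ‘Victoria’ libraries. AOMT, an anthocyanin O-methyltransferase, was between 8.08 and 28.67 FPKM in ‘Muscat Hamburg’ and between 0 and 0.59 FPKM in ‘Victoria’. 3AT, an anthocyanin acyltransferase, was between 0.38 and 3.15 FPKM in ‘Muscat Hamburg’ and between 0 and 0.34 FPKM in ‘Victoria’, and UFGT, the anthocyanin glucosyltransferase, was between 18.80 and 74.96 FPKM in ‘Muscat Hamburg’ and between 6.35 and 12.99 FPKM in ‘Victoria’. FPKM relates the fragments counted on a gene to the length of its transcript and to the number of mapped reads. No 2 libraries of a group differed by as little as sampling noise, the lowest chi-square per degree of freedom being 1.446. The first replicate of the ‘Victoria’ summer season at E-L 36 stood apart from the other replicates of its group in F3H VIT_204s0023g03370, with 28.57 FPKM against 6.22 and 4.77 FPKM, and in the summed level of 33 stilbene synthase genes, with 25.16 FPKM against 311.68 and 316.29 FPKM. In that library MYBA1 was at 0, AOMT at 0.16 FPKM and 3AT at 0.05 FPKM, while its UFGT level of 12.99 FPKM was the highest of ‘Victoria’. For the CHS, CHI and F3H genes, the season effects, differences of season effects, sums and shares that it moved most are given with and without it.

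Other libraries stood apart by the chi-square per degree of freedom between replicates. The third ‘Muscat Hamburg’ winter replicate at E-L 36 had 28.4 and 28.0 against the others, which had 1.48 between them, and the first ‘Victoria’ winter replicate at E-L 38 had 20.0 and 19.9, with 1.45 between the others. The first ‘Muscat Hamburg’ summer replicate at E-L 36 had 57.1 and 31.1, with 12.8 between the others. Leaving out any 1 of these 3 libraries left the count of members called higher in winter as it was with all libraries, at 5 of 6 in ‘Muscat Hamburg’ at E-L 36 and 4 of 6 in ‘Victoria’ at E-L 38. Replicates also differed in ‘Victoria’ summer at E-L 35 (9.55 to 19.9) and E-L 38 (10.7 to 39.9), and in ‘Victoria’ winter at E-L 35 (8.43 to 23.4). Without any 1 library of the groups compared, the count in ‘Victoria’ was 5 of 6 at E-L 35 and 3 to 4 of 6 at E-L 38.

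A gene was called at a fold change of at least 2 and an adjusted p of at most 0.05 by edgeR, whose quasi-likelihood p-values were adjusted over all genes tested (Benjamini-Hochberg). Log2 fold changes are given as winter over summer or ‘Muscat Hamburg’ over ‘Victoria’, with their standard error (SE). In berries, fewer cells of a type and less RNA per cell cannot be told apart. Gene names come from the gene lists of the study, and no coordinates are given, since no annotation of the grapevine build was used. Estimated counts were whole numbers in 34 of the 36 libraries for both CHS genes and in all libraries for the other members.

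The early flavonoid genes were higher in the winter season berries in most comparisons of both varieties. Over the 6 comparisons of season and the 6 genes, 28 of 36 values were called higher in winter, 1 was called lower and 7 were not called. CHS VIT_214s0068g00920, CHI VIT_213s0067g03820 and F3H VIT_218s0001g14310 were called higher in winter in all 6 comparisons. CHS VIT_205s0136g00260 was called higher in 5 of them, F3H VIT_204s0023g03370 in 4 and CHI VIT_213s0067g02870 in 1.

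**Figure D1:**
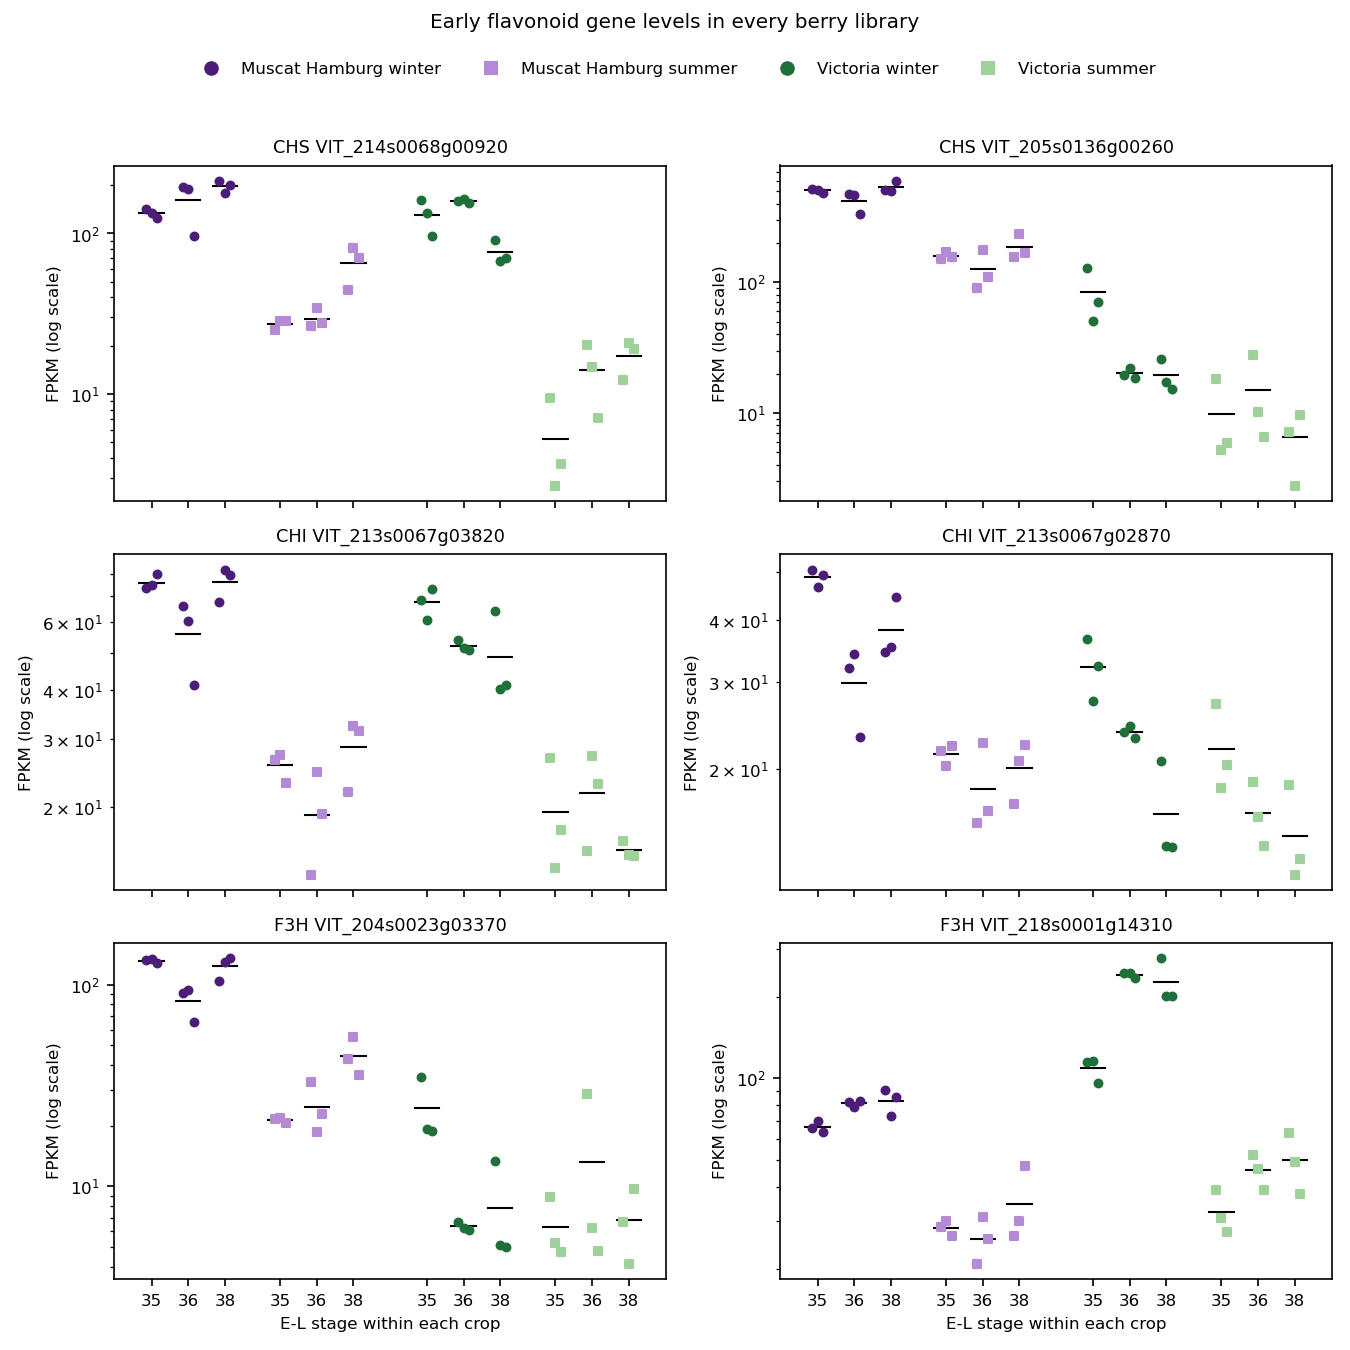
FPKM on a log axis of the 6 measured genes in each of the 36 libraries, by variety, season and E-L stage. Points are libraries and bars are means of 3 libraries. The winter libraries of CHS VIT_214s0068g00920 sit between 67.65 and 212.94 FPKM in both varieties, while F3H VIT_204s0023g03370 reaches winter levels of 65.68 FPKM or more only in ‘Muscat Hamburg’.

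CHS VIT_214s0068g00920 had the widest difference between the seasons in 4 of the 6 comparisons, while an F3H gene had it in ‘Muscat Hamburg’ at E-L 35 and in ‘Victoria’ at E-L 38. In the ‘Victoria’ grapes at E-L 35 its levels were 161.77, 133.37 and 95.90 FPKM in winter, against 9.44, 2.67 and 3.65 FPKM in summer. The lowest winter library was thus far above the highest summer one. The log2 fold change was 4.79 (SE 0.37, adjusted p = 2.0e-10 by edgeR with Benjamini-Hochberg adjustment, n = 3 per group). At E-L 36 the ‘Victoria’ libraries had 159.24, 163.45 and 155.38 FPKM in winter, against 20.17, 14.85 and 7.10 FPKM in summer, with a log2 fold change of 3.53 (SE 0.35). At E-L 38 they had 90.60, 67.65 and 70.57 FPKM in winter, against 12.17, 20.86 and 19.13 FPKM in summer, with a log2 fold change of 2.11 (SE 0.33). The seasons did not overlap at any of the 3 stages, as was the case for 44.5% to 56.5% of all genes in the 6 comparisons of season.

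In the ‘Muscat Hamburg’ grapes the same CHS gene had 142.04, 134.95 and 125.19 FPKM in winter at E-L 35, against 25.01, 28.41 and 28.61 FPKM in summer. At E-L 36 it had 195.78, 190.31 and 96.82 FPKM in winter, against 26.62, 34.27 and 27.64 FPKM in summer, and the lowest winter level was that of the library that stood apart. At E-L 38 the levels were 212.94, 179.17 and 199.79 FPKM in winter, against 44.70, 80.84 and 70.43 FPKM in summer. Every winter library was above every summer library of its stage, and the log2 fold changes were 2.24 (SE 0.33) at E-L 35, 2.34 (SE 0.33) at E-L 36 and 1.65 (SE 0.32) at E-L 38. At E-L 35 the winter means were 134 ± 8.46 FPKM in ‘Muscat Hamburg’ and 130 ± 33.04 FPKM in ‘Victoria’, and the summer means were 27.3 ± 2.02 FPKM in ‘Muscat Hamburg’ and 5.25 ± 3.66 FPKM in ‘Victoria’ (SD, n = 3). The varieties thus overlapped in winter and not in summer at this stage.

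CHS VIT_205s0136g00260 was the most abundant member in ‘Muscat Hamburg’. It had 518.67, 512.44 and 485.93 FPKM in the winter berries of that variety at E-L 35, against 149.68, 171.75 and 155.24 FPKM in the summer ones. At E-L 38 it had 509.53, 499.67 and 599.05 FPKM in winter, against 156.56, 232.69 and 166.58 FPKM in summer. The log2 fold changes were close to each other, with 1.62 (SE 0.42) at E-L 35, 1.66 (SE 0.42) at E-L 36 and 1.59 (SE 0.42) at E-L 38, all called.

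In ‘Victoria’ this gene had 128.78, 50.76 and 71.09 FPKM in winter at E-L 35, against 18.08, 5.19 and 5.89 FPKM in summer, and the log2 fold change was 3.27 (SE 0.46). At E-L 36 it had 19.39, 22.14 and 18.58 FPKM in winter, against 27.86, 10.20 and 6.51 FPKM in summer. There the first summer library was above all winter libraries, the seasons overlapped and the gene was not called, with a log2 fold change of 0.43 (SE 0.44, adjusted p = 0.43 by edgeR). Without that library the log2 fold change was 1.33 (adjusted p = 0.0162 by edgeR) and the gene was called. At E-L 38 the log2 fold change was 1.52 (SE 0.47, adjusted p = 0.0072 by edgeR). It was 1.17 with an adjusted p of 0.0521 without the second summer replicate of E-L 38, the library with the lowest level of 2.74 FPKM.

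The CHI genes had the smallest range of levels. CHI VIT_213s0067g03820 was between 41.37 and 82.08 FPKM in the 9 winter libraries of ‘Muscat Hamburg’ (median 73.58) and between 13.34 and 32.42 FPKM in the 9 summer ones (median 24.68). In ‘Victoria’ it was between 40.41 and 72.94 FPKM in winter (median 53.97) and between 13.93 and 27.03 FPKM in summer (median 16.38). No winter library of either variety fell into the range of its summer libraries. Its log2 fold changes ran from 1.31 in ‘Victoria’ at E-L 36 to 1.96 in ‘Victoria’ at E-L 35, and all 6 were called.

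CHI VIT_213s0067g02870 was called only in ‘Muscat Hamburg’ at E-L 35, where it had 50.53, 46.64 and 49.19 FPKM in winter, against 21.73, 20.33 and 22.25 FPKM in summer, with a log2 fold change of 1.13 (SE 0.17). In the other comparisons its log2 fold change was under the fold threshold. It was 0.62 (SE 0.17) at E-L 36 and 0.99 (SE 0.17) at E-L 38 in ‘Muscat Hamburg’, and 0.72 (SE 0.17) at E-L 35 and 0.58 (SE 0.17) at E-L 36 in ‘Victoria’, each with an adjusted p under 0.05 by edgeR. The value at E-L 38 in ‘Muscat Hamburg’ passed the fold threshold, at 1.03 to 1.05, without summer replicate 2 or 3 or without winter replicate 1 or 2. At E-L 38 in ‘Victoria’ it had 20.80, 13.99 and 13.92 FPKM in winter, against 18.63, 12.24 and 13.17 FPKM in summer. The seasons overlapped there, and the log2 fold change was 0.12 (SE 0.17, adjusted p = 0.59 by edgeR).

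The F3H genes differed in where the season effect was seen. F3H VIT_204s0023g03370 had 132.77, 133.84 and 128.73 FPKM in the winter berries of ‘Muscat Hamburg’ at E-L 35, against 21.57, 21.92 and 20.71 FPKM in the summer berries. The log2 fold change of 2.57 (SE 0.42) was the largest of the 6 genes in that comparison. At E-L 36 and 38 it was 1.66 (SE 0.41) and 1.52 (SE 0.40) in this variety. In ‘Victoria’ the gene had 34.98, 19.37 and 18.93 FPKM in winter at E-L 35, against 8.87, 5.22 and 4.74 FPKM in summer, with a log2 fold change of 2.13 (SE 0.44).

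At E-L 36 the ‘Victoria’ libraries of this F3H gene had 6.68, 6.23 and 6.10 FPKM in winter, against 28.57, 6.22 and 4.77 FPKM in summer. The winter levels lay between the highest and the lowest summer one. The test called the gene lower in winter, with a log2 fold change of -1.07 (SE 0.45, adjusted p = 0.0479 by edgeR). Without that summer library the log2 fold change was 0.28 with an adjusted p of 0.561, and it was not called when the fit held these 6 libraries alone (adjusted p = 0.224), with limma on log2(FPKM + 1) (-0.55, adjusted p = 0.261), with the replicate number as a block (-0.92, adjusted p = 0.0628), or without any 1 of the 3 winter libraries. At E-L 38 it had 13.35, 5.11 and 4.99 FPKM in winter, against 6.67, 4.13 and 9.69 FPKM in summer. The seasons overlapped, with a log2 fold change of 0.12 (SE 0.47, adjusted p = 0.85 by edgeR), which was -0.41 without the first winter replicate, the library that stood apart.

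F3H VIT_218s0001g14310 reached its highest level in ‘Victoria’. At E-L 36 it had 243.14, 244.25 and 234.94 FPKM in the winter berries of that variety, against 52.44, 46.35 and 38.90 FPKM in the summer berries. At E-L 38 it had 276.37, 201.77 and 201.52 FPKM in winter, against 63.15, 49.13 and 37.65 FPKM in summer. The seasons were far apart at both stages, and the log2 fold changes were 2.43 (SE 0.19) and 2.15 (SE 0.19). At E-L 35 the log2 fold change in ‘Victoria’ was 1.91 (SE 0.19). In ‘Muscat Hamburg’ the 9 winter libraries had 63.65 to 90.41 FPKM (median 78.66) and the 9 summer libraries 20.82 to 47.52 FPKM (median 28.36), with log2 fold changes of 1.18 (SE 0.18), 1.59 (SE 0.19) and 1.33 (SE 0.19) at E-L 35, 36 and 38.

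**Figure D2:**
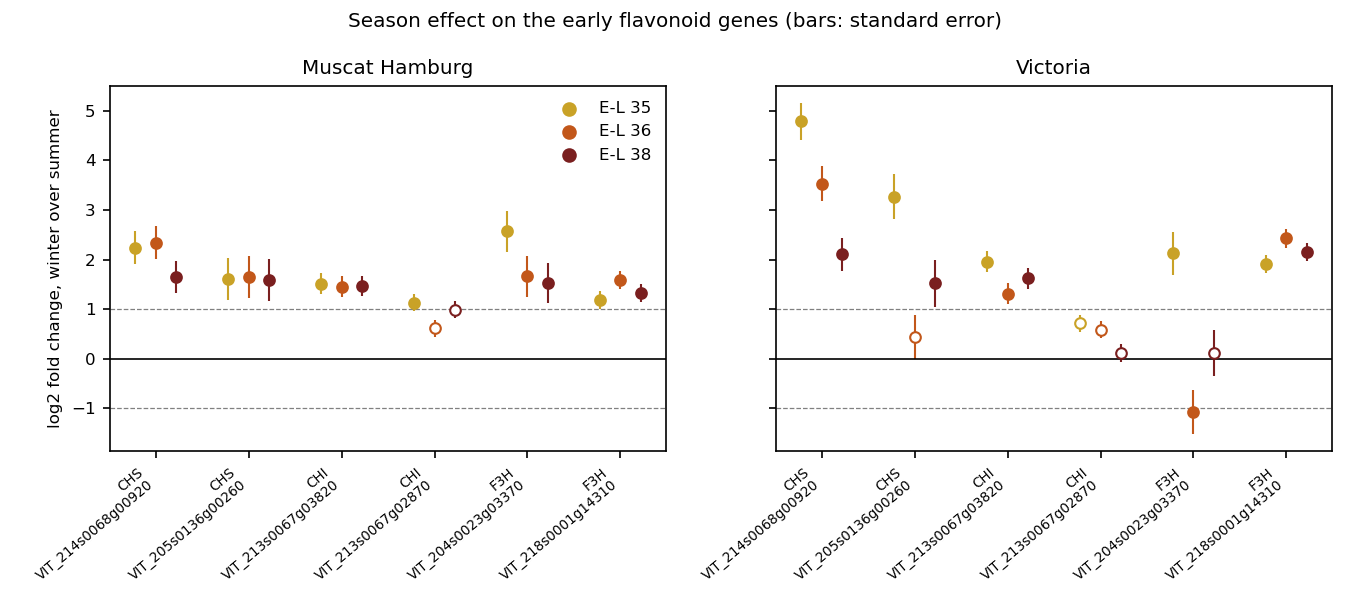
Log2 fold change of winter over summer (vertical axis) of the 6 genes at the 3 E-L stages in ‘Muscat Hamburg’ (left) and ‘Victoria’ (right). Bars are standard errors of the fit, filled points were called, open points were not, and dashed lines mark a fold change of 2. In ‘Muscat Hamburg’ all points lie between 0.62 and 2.57, and in ‘Victoria’ between -1.07 and 4.79.

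Read as a group, the members were called more often than all genes tested. The members were chosen with earlier results of these data known, so these counts are not independent evidence of a direction. In ‘Muscat Hamburg’, 6 of 6 were called higher in winter at E-L 35, where 4.15% of all genes were, 5 of 6 at E-L 36, where 9.8% were, and 5 of 6 at E-L 38, where 8.9% were. In ‘Victoria’, 5 of 6 were called higher at E-L 35 (8.44% of all genes), 3 of 6 at E-L 36 (9.96%) and 4 of 6 at E-L 38 (10.9%). The 1 member called lower in winter, at E-L 36 in ‘Victoria’, stood beside 13.6% of all genes called lower. The median log2 fold change of the 6 genes was 1.57, 1.62 and 1.50 at the 3 stages in ‘Muscat Hamburg’ and 2.05, 0.95 and 1.57 in ‘Victoria’, while the median of all genes tested was between -0.03 and 0.00. Without the ‘Victoria’ summer library of E-L 36 that stood apart, 4 of 6 members were called higher at that stage and their median was 1.23.

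The next question was whether the season effect itself differed between the varieties. At E-L 35 the effect on CHS VIT_214s0068g00920 was smaller in ‘Muscat Hamburg’ than in ‘Victoria’, with a difference of the log2 fold changes of -2.55 (SE 0.46, adjusted p = 0.00035 by edgeR). This gene was the 1 member of 6 called there, beside 9.38% of all genes. For CHS VIT_205s0136g00260 the difference was -1.65 (SE 0.60) and was not called (adjusted p = 0.054 by edgeR), but it was called without the first ‘Victoria’ summer replicate of that stage (-2.47) or the second winter one (-1.92), which made 2 members. At E-L 36 the effect on F3H VIT_204s0023g03370 was larger in ‘Muscat Hamburg’ by 2.73 (SE 0.61, adjusted p = 0.002 by edgeR), again the 1 member called, beside 10.4% of all genes. Without the ‘Victoria’ summer library that stood apart this difference was 1.38 with an adjusted p of 0.0299, still called, and CHS VIT_214s0068g00920 was called as well, at -1.60 against -1.19 with all libraries.

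At E-L 38 none of the 6 members was called for a difference of the season effect between the varieties by edgeR, beside 8.25% of all genes. DESeq2 and limma called 0 as well. At an unadjusted p under 0.05 there were 3 members, and no share of all genes was counted at that threshold. F3H VIT_218s0001g14310 had differences of the season effect, ‘Muscat Hamburg’ minus ‘Victoria’, of -0.73 (SE 0.26) at E-L 35, -0.84 (SE 0.26) at E-L 36 and -0.82 (SE 0.26) at E-L 38. These 3 values had adjusted p of 0.0486, 0.0214 and 0.0272 by edgeR but were under the fold threshold. At E-L 38 this gene was called, at -1.02, without the first ‘Victoria’ summer replicate, and CHI VIT_213s0067g02870 (1.02) and F3H VIT_204s0023g03370 (1.94) were called without the first ‘Victoria’ winter replicate.

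The season effect was then compared between harvest and the onset of veraison. In ‘Victoria’ it was smaller at E-L 38 than at E-L 35 for CHS VIT_214s0068g00920, with a difference of -2.68 (SE 0.47, adjusted p = 3.8e-05 by edgeR). For F3H VIT_204s0023g03370 the difference was -2.01 (SE 0.64, adjusted p = 0.0118 by edgeR). For CHS VIT_205s0136g00260 it was -1.75 (SE 0.64, adjusted p = 0.027 by edgeR), a call that was lost when any 1 of 7 libraries was left out (adjusted p of 0.0508 to 0.111). These were summer replicates 2 and 3 and winter replicate 1 of E-L 35, and summer replicates 1 and 3 and winter replicates 2 and 3 of E-L 38. These were 3 of 6 members, beside 25.2% of all genes. In ‘Muscat Hamburg’ edgeR called none of the 6 members, beside 13.9% of all genes. At an unadjusted p under 0.05, by DESeq2 and by limma the count was 0 as well. No share of all genes was counted at the unadjusted p. When only the compared groups were fitted, edgeR called F3H VIT_204s0023g03370, at -1.05 with an adjusted p of 0.00058.

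Within a season the varieties were compared next. CHS VIT_205s0136g00260 and F3H VIT_204s0023g03370 were the members that differed most. The CHS gene was higher in ‘Muscat Hamburg’ in all 6 comparisons, with log2 fold changes from 2.67 (SE 0.44) in winter berries at E-L 35 to 4.89 (SE 0.49) in winter berries at E-L 38. At that last point ‘Muscat Hamburg’ had 509.53, 499.67 and 599.05 FPKM, against 25.94, 17.16 and 15.10 FPKM in ‘Victoria’. The ranges of the varieties did not overlap at any season and stage, which held for 37.2% to 65.9% of all genes in a single comparison.

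F3H VIT_204s0023g03370 was called higher in ‘Muscat Hamburg’ in 5 of 6 comparisons. In winter berries the log2 fold changes were 2.50 (SE 0.42) at E-L 35, 3.75 (SE 0.46) at E-L 36 and 4.11 (SE 0.46) at E-L 38. In summer berries they were 2.05 (SE 0.43) at E-L 35 and 2.70 (SE 0.45) at E-L 38. At E-L 36 in summer the value was 1.02 (SE 0.42) and was not called (adjusted p = 0.056 by edgeR). Without the ‘Victoria’ library that stood apart it was 2.37 with an adjusted p of 9.67e-06.

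CHS VIT_214s0068g00920 differed between the varieties mainly in the summer berries. Its log2 fold changes in summer were 2.67 (SE 0.35) at E-L 35, 1.21 (SE 0.33) at E-L 36 and 1.92 (SE 0.33) at E-L 38, all called higher in ‘Muscat Hamburg’. By edgeR the call at E-L 36 was lost when only its own libraries were fitted (adjusted p = 0.0674) and without the third ‘Victoria’ replicate (0.90, adjusted p = 0.041, under the fold threshold). In winter berries this gene was called only at E-L 38, where ‘Muscat Hamburg’ had 212.94, 179.17 and 199.79 FPKM and ‘Victoria’ had 90.60, 67.65 and 70.57 FPKM, with a log2 fold change of 1.46 (SE 0.32).

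F3H VIT_218s0001g14310 was the 1 member called lower in ‘Muscat Hamburg’ in any comparison. In winter berries its log2 fold changes were -1.52 (SE 0.18) at E-L 36 and -1.35 (SE 0.18) at E-L 38, both called. At E-L 36 these were 82.22, 78.66 and 82.82 FPKM in ‘Muscat Hamburg’, against 243.14, 244.25 and 234.94 FPKM in ‘Victoria’. In winter berries at E-L 35 it was -0.64 (SE 0.18), and in summer berries -0.67 (SE 0.18) at E-L 36 and -0.53 (SE 0.18) at E-L 38, all under the fold threshold. In summer berries at E-L 35 it was 0.09 (SE 0.18, adjusted p = 0.72 by edgeR) and the varieties overlapped.

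The CHI genes had 1 call among 12 values. It was VIT_213s0067g02870 in winter berries at E-L 38, where ‘Muscat Hamburg’ had 34.49, 35.35 and 44.59 FPKM, against 20.80, 13.99 and 13.92 FPKM in ‘Victoria’, with a log2 fold change of 1.33 (SE 0.17). Of the others, 5 had an adjusted p under 0.05 by edgeR and a log2 fold change of 0.46 to 0.90, higher in ‘Muscat Hamburg’. CHI VIT_213s0067g03820 was called in summer berries at E-L 35 without the first ‘Victoria’ replicate (1.01, against 0.69 with all libraries) and at E-L 38 without the first ‘Muscat Hamburg’ replicate (1.06, against 0.90).

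Counted over the members, 2 of 6 were called in either direction between the varieties in winter berries at E-L 35, beside 14.7% of all genes, 3 of 6 at E-L 36, beside 16.3%, and 5 of 6 at E-L 38, beside 13.4%. In summer berries these were 3 of 6 at E-L 35, beside 19% of all genes, 2 of 6 at E-L 36, beside 16.9%, and 3 of 6 at E-L 38, beside 18.3%. In summer berries at E-L 36 the count was 1 of 6 without the third ‘Victoria’ replicate or when only the compared libraries were fitted, and 3 of 6 by DESeq2 and limma.

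Since each enzyme had a pair of measured copies, the share of each copy in the summed FPKM of its enzyme was described, with no test. The CHS sum left out VIT_214s0068g00930, which had no value. CHS VIT_214s0068g00920 made up 14.7% to 27.0% of the CHS sum in the 6 group means of ‘Muscat Hamburg’ and 35.5% to 88.8% in those of ‘Victoria’. CHS VIT_205s0136g00260 was the more abundant copy in 18 of 18 ‘Muscat Hamburg’ libraries and in 4 of 18 ‘Victoria’ libraries. F3H VIT_204s0023g03370 made up 43.2% to 66.5% of the F3H sum in ‘Muscat Hamburg’ and 2.56% to 19.3% in ‘Victoria’, where VIT_218s0001g14310 was the more abundant copy in 18 of 18 libraries. The highest of the ‘Victoria’ means, in summer berries at E-L 36, held 35.3% in the library that stood apart and 11.8% and 10.9% in the others. CHI VIT_213s0067g03820 took a share of 46.3% to 74.9% over all 12 groups, with no such split between the varieties.

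**Figure D3:**
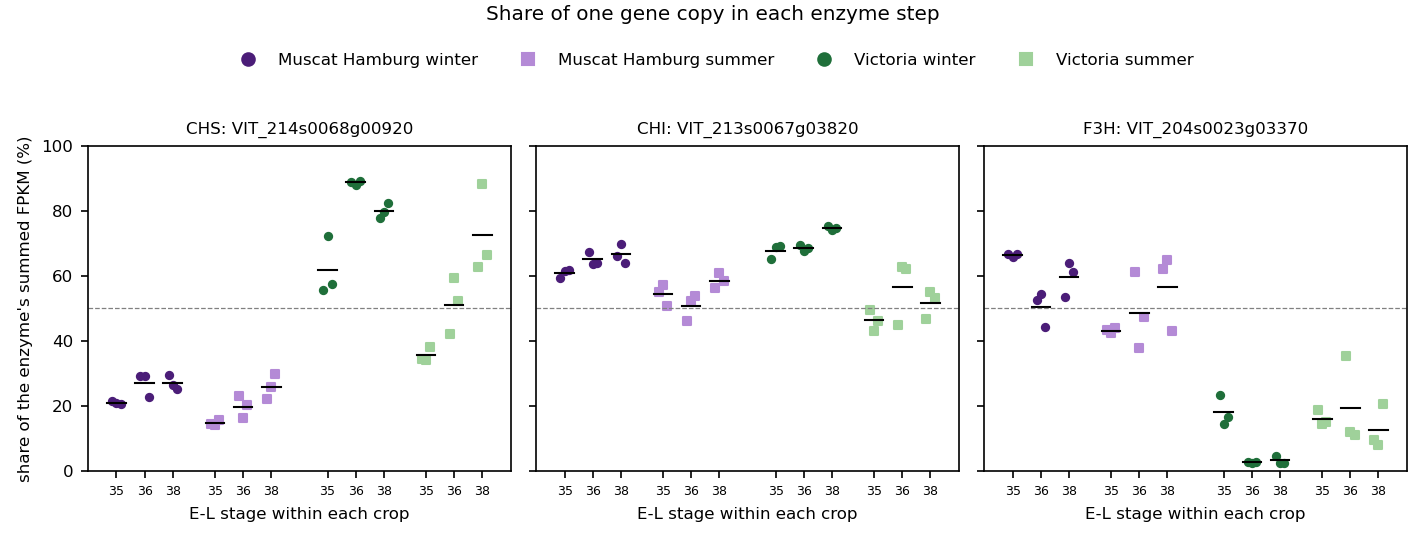
Share in percent of 1 copy in the summed FPKM of the measured copies of its enzyme (vertical axis). Each library is shown by variety, season and E-L stage, for CHS, CHI and F3H. Points are libraries, bars are means of 3 libraries and the dashed line marks 50%. The CHS share lies at or below 29.7% in all ‘Muscat Hamburg’ libraries and at or above 34.0% in all ‘Victoria’ libraries.

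The summed level of the measured CHS copies showed both differences together. In winter berries the sum was 640 ± 25.7, 584 ± 135 and 733 ± 60.7 FPKM in ‘Muscat Hamburg’ and 214 ± 66.9, 179 ± 5.85 and 95.7 ± 18.1 FPKM in ‘Victoria’ at E-L 35, 36 and 38 (SD, n = 3). In summer berries it was 186 ± 12.9, 155 ± 50.4 and 251 ± 57.4 FPKM in ‘Muscat Hamburg’ and 14.97 ± 10.9, 28.9 ± 17.5 and 23.9 ± 4.69 FPKM in ‘Victoria’. The sum of 28.9 FPKM was 48.03 FPKM in the library that stood apart and 25.05 and 13.61 FPKM in the others.

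The F3H sum did not have the same order of varieties throughout. At E-L 35 it was 198 ± 5.57 FPKM in ‘Muscat Hamburg’ and 134 ± 17.4 FPKM in ‘Victoria’ in winter berries. In summer berries of that stage it was 49.6 ± 2.37 FPKM in ‘Muscat Hamburg’ and 38.6 ± 8.29 FPKM in ‘Victoria’. The summer libraries of the varieties overlapped there, at 47.05 to 51.75 FPKM and 31.88 to 47.84 FPKM. In winter berries at E-L 36 it was 165 ± 14.1 FPKM in ‘Muscat Hamburg’ and 247 ± 5.27 FPKM in ‘Victoria’, and at E-L 38 it was 206 ± 13.3 FPKM in ‘Muscat Hamburg’ and 234 ± 47.9 FPKM in ‘Victoria’, where the libraries of the varieties overlapped. In summer berries it was 50.6 ± 2.74 FPKM in ‘Muscat Hamburg’ and 59.1 ± 19.5 FPKM in ‘Victoria’ at E-L 36, and 79.0 ± 8.61 FPKM in ‘Muscat Hamburg’ and 56.8 ± 11.7 FPKM in ‘Victoria’ at E-L 38, with overlap at both stages (SD, n = 3). Without the ‘Victoria’ summer library of E-L 36 that stood apart, the ‘Victoria’ mean of that group was 48.1 FPKM. In winter at E-L 38 the ‘Victoria’ sums were 289.72 FPKM in the library that stood apart and 206.88 and 206.51 FPKM in the others. The ‘Victoria’ libraries all lay above those of ‘Muscat Hamburg’ only in winter berries at E-L 36.

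Over the 12 group means, the order of levels differed by gene. CHS VIT_205s0136g00260 ran from 536 FPKM in ‘Muscat Hamburg’ winter berries at E-L 38 down to 6.51 FPKM in ‘Victoria’ summer berries at E-L 38, an 82.4-fold range, and all 6 ‘Muscat Hamburg’ groups stood above all 6 of ‘Victoria’. Of its 11 pairs of neighbours in this order, 3 did not overlap in their libraries, among them ‘Muscat Hamburg’ winter at E-L 36 over ‘Muscat Hamburg’ summer at E-L 38, and ‘Victoria’ winter at E-L 35 over ‘Victoria’ winter at E-L 36. The lowest ‘Muscat Hamburg’ group, summer at E-L 36, did overlap with the highest ‘Victoria’ group, winter at E-L 35. CHS VIT_214s0068g00920 had a 37.6-fold range, with ‘Muscat Hamburg’ winter at E-L 38 at the top and ‘Victoria’ summer at E-L 35 at the bottom. By their means its 6 winter groups stood above its 6 summer groups. The lowest winter group, ‘Victoria’ at E-L 38, overlapped in its libraries with the highest summer group, ‘Muscat Hamburg’ at E-L 38. F3H VIT_204s0023g03370 ranged 21.0-fold, F3H VIT_218s0001g14310 9.34-fold, CHI VIT_213s0067g03820 4.94-fold and CHI VIT_213s0067g02870 3.32-fold. For this last gene only the top neighbours did not overlap, ‘Muscat Hamburg’ winter berries at E-L 35 over those at E-L 38.

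From stage to stage in ‘Muscat Hamburg’, the edgeR counts of members called were near the shares of all genes called. By edgeR none of the 6 members was called from E-L 35 to E-L 36 in winter (14.5% of all genes called), from E-L 36 to E-L 38 in winter (9.36%), from E-L 35 to E-L 36 in summer (8.63%) or from E-L 36 to E-L 38 in summer (1.15%). The libraries of the stages did not overlap for 5, 4, 0 and 2 of the 6 members in these 4 steps. The shares of all genes were 52.8%, 38.8%, 41.1% and 20.5%. At an unadjusted p under 0.05 there were 2, 2, 0 and 2 members, and no share of all genes was counted at that threshold. DESeq2 and limma on log2(FPKM + 1) each called 1 in the last step and 0 in the others, and limma on log2(FPKM + 0.1) called 0. The gene called was CHS VIT_214s0068g00920, whose log2 fold change of 1.02 (SE 0.32) had an adjusted p of 0.0792 by edgeR.

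In ‘Victoria’ winter berries, 3 of 6 members were called from E-L 35 to E-L 36, beside 18.9% of all genes. F3H VIT_218s0001g14310 rose, with 243.14, 244.25 and 234.94 FPKM at E-L 36 against 115.14, 115.93 and 96.50 FPKM at E-L 35, a log2 fold change of 1.28 (SE 0.18). CHS VIT_205s0136g00260 fell to 20.0 ± 1.87 FPKM at E-L 36, against 83.5 ± 40.5 FPKM at E-L 35 (SD, n = 3), with a log2 fold change of -1.93 (SE 0.44). F3H VIT_204s0023g03370 fell to 6.34 ± 0.30 FPKM at E-L 36, against 24.4 ± 9.14 FPKM at E-L 35 (SD, n = 3), with a log2 fold change of -1.82 (SE 0.45). The F3H copies thus moved in opposite directions over the same step, and the stages did not overlap for any of these 3 genes, as for 54.9% of all genes in this step.

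From E-L 36 to E-L 38 in ‘Victoria’ winter berries 1 of 6 members was called, beside 5.59% of all genes. It was CHS VIT_214s0068g00920, with 90.60, 67.65 and 70.57 FPKM at E-L 38 against 159.24, 163.45 and 155.38 FPKM at E-L 36, a log2 fold change of -1.11 (SE 0.32, adjusted p = 0.0142 by edgeR). Without the second replicate of E-L 38 the adjusted p was 0.0545 and the call was lost.

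In ‘Victoria’ summer berries 2 of 6 members were called from E-L 35 to E-L 36, beside 16.6% of all genes. CHS VIT_214s0068g00920 had a log2 fold change of 1.69 (SE 0.35), with 20.17, 14.85 and 7.10 FPKM at E-L 36 against 9.44, 2.67 and 3.65 FPKM at E-L 35, and the stages overlapped. F3H VIT_204s0023g03370 had a log2 fold change of 1.38 (SE 0.44), which was 0.03 without the first replicate of E-L 36, the library that stood apart, and its call was lost as well without the third replicate of E-L 35 and by limma. CHS VIT_205s0136g00260, at 0.90 with all libraries, was called without the first replicate of E-L 35 (1.72) or the third of E-L 36 (1.26). From E-L 36 to E-L 38 in summer edgeR called none of the 6, beside 0.218% of all genes. DESeq2 and limma called 0 as well. At an unadjusted p under 0.05 there were 3 members, and no share of all genes was counted at that threshold.

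The members did not all vary alike. Over the 12 group means of log2(FPKM + 1), CHS VIT_205s0136g00260 and F3H VIT_204s0023g03370 had a Pearson r of 0.95, and CHS VIT_214s0068g00920 and CHI VIT_213s0067g03820 had an r of 0.90. F3H VIT_218s0001g14310 had an r of -0.12 with CHS VIT_205s0136g00260 and of -0.13 with the other F3H gene. These values are descriptions over groups that share varieties, seasons and libraries.

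**Figure D4:**
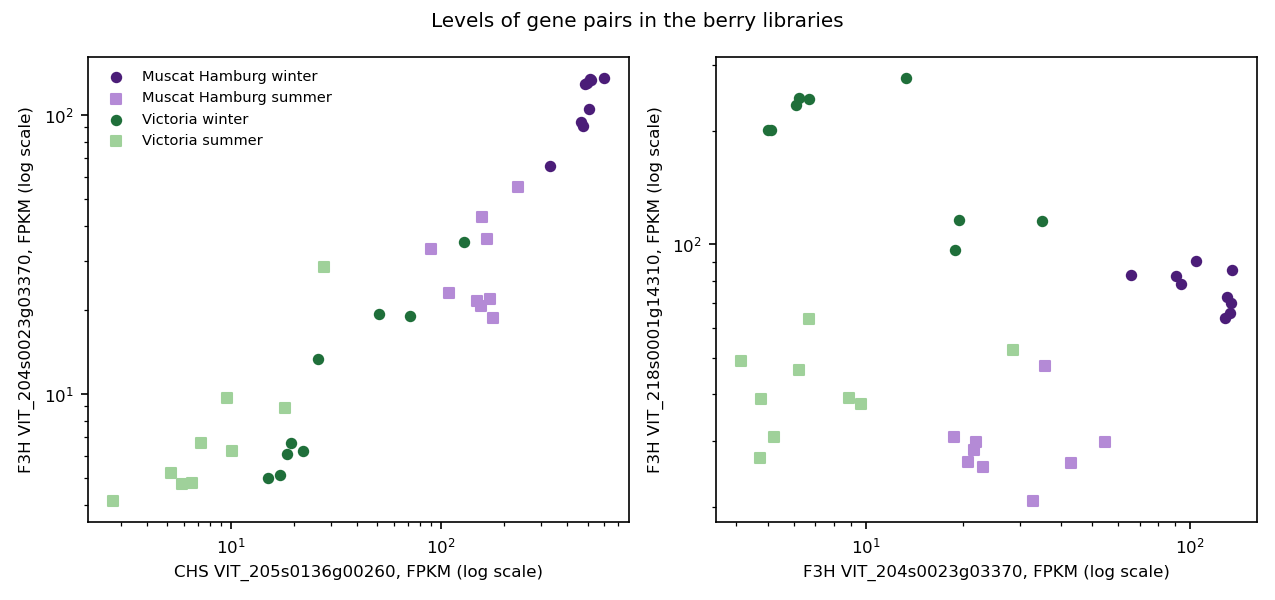
FPKM on log axes of CHS VIT_205s0136g00260 against F3H VIT_204s0023g03370 (left) and of both F3H genes against each other (right), 1 point per library, by variety and season. On the left the points form 1 band, with a Pearson r of 0.95 over the 12 group means, and on the right the ‘Victoria’ winter libraries stand apart with 96.50 to 276.37 FPKM of VIT_218s0001g14310.

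Among the other pathway genes, those most like each member over the 12 group means were named by their r. For CHS VIT_205s0136g00260 and F3H VIT_204s0023g03370 it was the leucoanthocyanidin dioxygenase gene VIT_202s0025g04720 (r = 0.94 and 0.93). For both CHI genes it was the dihydroflavonol reductase gene VIT_218s0001g12800 (r = 0.83 for VIT_213s0067g03820 and 0.91 for VIT_213s0067g02870). For CHS VIT_214s0068g00920 it was the MYB gene VIT_202s0033g00450 (r = 0.90), and for F3H VIT_218s0001g14310 it was VIT_210s0523g00030, a gene annotated as COP1, the ubiquitin ligase of light signalling (r = 0.83), followed closely by the flavonol synthase gene VIT_218s0001g03470 (r = 0.83). Among all genes that passed the filter, the closest were VIT_213s0067g02140 to CHS VIT_214s0068g00920 (r = 0.95), VIT_203s0088g00260 to CHS VIT_205s0136g00260 (r = 0.96), VIT_218s0122g01430 to CHI VIT_213s0067g03820 (r = 0.96), VIT_202s0025g02390 to CHI VIT_213s0067g02870 (r = 0.95), VIT_211s0016g04330 to F3H VIT_204s0023g03370 (r = 0.96) and VIT_201s0026g01650 to F3H VIT_218s0001g14310 (r = 0.98). Each r was picked as the highest of many genes over only 12 group means, so it is a description. The group means were low for VIT_211s0016g04330 (0 to 1.90 FPKM) and VIT_218s0122g01430 (0.26 to 2.95 FPKM).

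The neighbouring steps were described from the pathway list of the study, which was chosen on these samples and so is not independent evidence of a direction. Of 17 upstream genes, which encode the enzymes PAL, C4H and 4CL that turn phenylalanine into p-coumaroyl-CoA, 9, 15 and 9 were called higher in winter and 0 lower at E-L 35, 36 and 38 in ‘Muscat Hamburg’. In ‘Victoria’ 16, 3 and 1 were called higher and 0, 1 and 3 lower at these stages. Of all genes tested in ‘Muscat Hamburg’, 4.15%, 9.8% and 8.9% were called higher and 1.86%, 8.97% and 11.1% lower. In ‘Victoria’ 8.44%, 9.96% and 10.9% of all genes were called higher and 8.87%, 13.6% and 15.9% lower. The median log2 fold change of the upstream genes in ‘Victoria’ was 3.58 at E-L 35, -0.15 at E-L 36 and -0.97 at E-L 38, beside 2.05, 0.95 and 1.57 for the early flavonoid genes.

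Of 23 genes of later steps, 10, 10 and 7 were called higher in winter and 0, 0 and 1 lower in ‘Muscat Hamburg’, and 8, 4 and 2 higher and 0, 3 and 3 lower in ‘Victoria’, at E-L 35, 36 and 38. Of 18 regulators, 5, 5 and 1 were called higher and 0, 3 and 1 lower in ‘Muscat Hamburg’, and 5, 5 and 3 higher and 0, 1 and 1 lower in ‘Victoria’. At E-L 38 the regulator counts in ‘Muscat Hamburg’ and the later-step counts in ‘Victoria’ lay below the shares of all genes. The later genes with the most lasting winter level in ‘Victoria’ included the flavonol synthase gene VIT_218s0001g03430, with a log2 fold change of 5.54 (SE 0.26) at E-L 38, a gene chosen here after its value was seen.

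**Figure D5:**
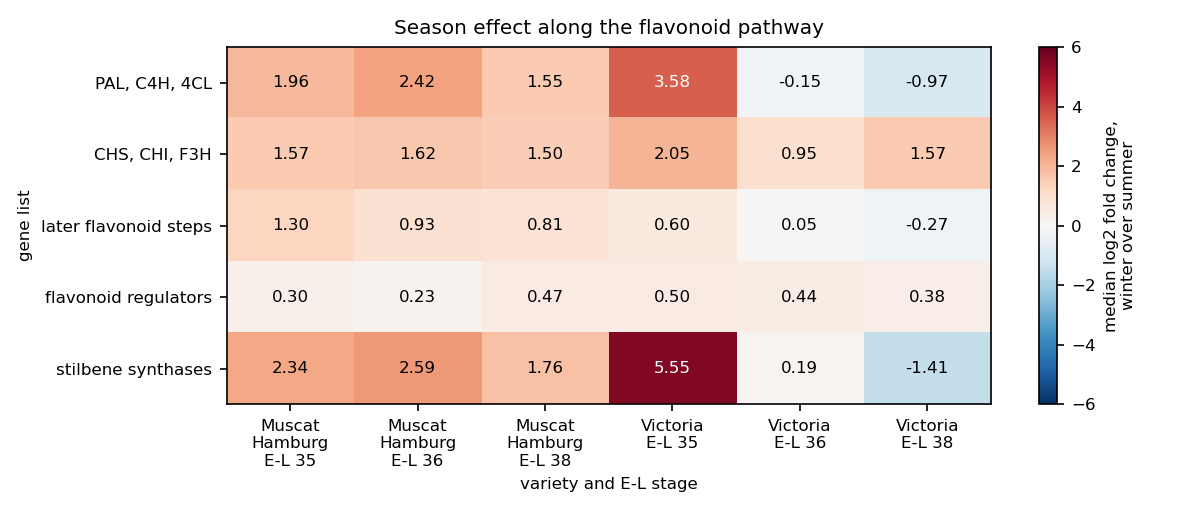
Median log2 fold change of winter over summer (colour and printed value) for each gene list (rows) in the 6 comparisons of season (columns). The early flavonoid genes keep medians of 0.95 to 2.05, while the upstream genes and the stilbene synthases fall below 0 in ‘Victoria’ at E-L 38.

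The stilbene synthases were described beside CHS, whose substrates they share. Of the 33 genes of the chromosome 16 locus, 30 were tested. In ‘Muscat Hamburg’ 7, 26 and 10 of them were called higher in winter and 0 lower at E-L 35, 36 and 38. In ‘Victoria’ 30 were called higher at E-L 35, 1 at E-L 36 and 0 at E-L 38, where 9 were called lower. The ‘Victoria’ count at E-L 36 includes the summer library that stood apart and was not taken without it. That library had a sum of 25.16 FPKM, against 311.68 and 316.29 FPKM in the other summer libraries. The winter sums of that stage were 221.06 to 252.81 FPKM. The shares of all genes called are those given beside the upstream genes.

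The ratio of the sum of the measured CHS copies to the stilbene synthase sum in FPKM differed widely between the varieties at E-L 35. In winter berries it was between 13.7 and 13.8 in the ‘Muscat Hamburg’ libraries and between 0.094 and 0.56 in the ‘Victoria’ libraries. In summer berries it was between 18.9 and 22.9 in ‘Muscat Hamburg’ and between 0.49 and 1.08 in ‘Victoria’. The gap was smaller at E-L 36, with 1.47 to 2.58 in ‘Muscat Hamburg’ and 0.71 to 0.84 in ‘Victoria’ in winter berries. In summer berries of that stage the ratios overlapped, with 1.31 to 12.2 in ‘Muscat Hamburg’ and 0.043 to 1.91 in ‘Victoria’, where the highest was the library that stood apart. At E-L 38 they were 3.14 to 10.7 in ‘Muscat Hamburg’ and 1.02 to 1.83 in ‘Victoria’ in winter berries, and 3.84 to 8.62 in ‘Muscat Hamburg’ and 0.084 to 0.17 in ‘Victoria’ in summer berries. The stilbene synthase sum varied between replicates, with 518.26, 412.13 and 1774.90 FPKM in ‘Victoria’ winter berries at E-L 35.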

How the data were processed

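De-seeded berries were measured by RNA-seq in 36 libraries. Reads had been aligned by the authors to version 12X V2 of the grapevine genome. The submitters' processing notes name Bowtie. Deposited with every library were estimated counts (expected counts) per gene, which were not normalized, and FPKM values computed by the authors. The counting program is not given in the sources used here. Genes at 0 were not listed and were set to 0, except VIT_214s0068g00930, which is not analysed here. A further table with 36 columns matched no label and was not used.

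After rounding, the estimated counts were fitted by edgeR 4.0.16 under R 4.3.3, with filterByExpr (19736 of 28119 genes), TMM scaling (factors 0.851 to 1.20) and 1 quasi-likelihood model of 12 groups. SE was the log2 fold change over the root of the F statistic. FPKM levels are as deposited, without TMM scaling. The steps were tested on simulated data. With 3 against 3 libraries the smallest p of an exact permutation test is 0.1, so no such test was used. The members were tested in this model, with the alternatives below as checks. The replicate numbers did not pair the libraries of 2 seasons (correlations of their deviations from -0.19 to 0.03). Alternatives were DESeq2 1.42.0, limma 3.58.1 with pseudocounts of 1 and 0.1, RLE or library size scaling, other filters and thresholds, fits of single comparisons, a replicate block and leaving out each library.

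All members were named. Genes most like a member were those with the highest Pearson r over group means, and other pathway genes were given by counts. The members, the pathway list and the stilbene synthase list were chosen with earlier results of these data known.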

Additional observations from a re-analysis of the deposited data

Results flagged for a closer look

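The season effect on 3 of the early flavonoid genes differed between the varieties or between harvest and the onset of veraison, by a contrast of the same edgeR model (Benjamini-Hochberg adjusted p at most 0.05, difference at least 2-fold). At E-L 35 the log2 fold change of winter over summer of CHS VIT_214s0068g00920 in ‘Muscat Hamburg’ minus that in ‘Victoria’ was -2.55. At E-L 36 the same difference for F3H VIT_204s0023g03370 was 2.73, and it was 1.38 without the first ‘Victoria’ summer replicate. Of all genes tested, 9.38% were called for this difference at E-L 35 and 10.4% at E-L 36.

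In ‘Victoria’ the log2 fold change at E-L 38 minus that at E-L 35 was -2.68 for CHS VIT_214s0068g00920, -1.75 for CHS VIT_205s0136g00260 and -2.01 for F3H VIT_204s0023g03370, beside 25.2% of all genes called. The call of CHS VIT_205s0136g00260 was lost by edgeR without any 1 of 7 libraries and when only the compared groups were fitted (adjusted p = 0.0805), and by limma on log2(FPKM + 0.1) (adjusted p = 0.0514). All 3 genes had a higher winter than summer level at E-L 35 in this variety.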

How the results depend on the processing

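Of 58 single-gene values called, 51 kept their direction and their call under every alternative. The counts of members called higher in winter stayed within 1.5 times of the reported count throughout, and no called direction changed under another scaling. Without the fold change condition the members called between the varieties were 4 in winter berries at E-L 35 and 6 in summer berries at E-L 38, those of the stage steps 1 in ‘Muscat Hamburg’ winter at E-L 36 and 2 in ‘Victoria’ winter at E-L 38, and those whose season effect differed between the varieties 2 at each of the 3 stages. When only the libraries compared were fitted, the counts were 1 between the varieties in summer at E-L 36, 1 for the ‘Victoria’ summer step to E-L 36, 2 for the varieties' season effects at E-L 35 and 1 for season by stage in ‘Muscat Hamburg’. At an adjusted p of at most 0.01 they were 0 for the ‘Victoria’ winter step to E-L 38, 1 for the ‘Victoria’ summer step to E-L 36 and 1 for season by stage in ‘Victoria’. DESeq2, library size alone and limma on log2(FPKM + 1) called 1 member in the ‘Muscat Hamburg’ summer step to E-L 38, and limma with a pseudocount of 1 or of 0.1 called 1 in the ‘Victoria’ summer step to E-L 36. The replicate block, which the data did not show to pair the libraries (0 of 18 correlations over 0.1, 4 of 18 libraries correlating best with their own number), gave 2 members for the difference between the varieties' season effects at E-L 35 and 2 at E-L 36.

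Leaving out each library in turn gave 1 to 3 members between the varieties in summer at E-L 36, 0 to 1 for the ‘Victoria’ winter step to E-L 38, 1 to 3 for the ‘Victoria’ summer step to E-L 36, and 1 to 2, 1 to 2 and 0 to 2 for the varieties' season effects at E-L 35, 36 and 38. In ‘Victoria’ the season effect on F3H VIT_204s0023g03370 ran from -1.47 to 0.28 at E-L 36, where the first summer replicate turned it, and from -0.41 to 0.46 at E-L 38, and that on CHI VIT_213s0067g02870 from -0.030 to 0.32 at E-L 38. For these the cause was not tested. Scaling by library size in place of TMM moved the median of all genes by over 0.1 in 11 of 25 comparisons, among them by -0.28 between the varieties in summer at E-L 35, by -0.25 in the ‘Victoria’ summer step to E-L 36 and by -0.16 for season in ‘Victoria’ at E-L 35, where 1326 genes were then called higher and 2318 lower, against 1665 and 1751 with TMM. The fit with the CHS copies' counts summed was not run, since 1 of the neighbouring copies had no value.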
